A study of Caenorhabditis elegans with 8 samples.

Results

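Genes of EGF signalling, of the ALA neuron and of sleep peptides in the worm were followed by name in a table of raw gene counts, and all 9 had a row among 46433. They comprise 3 EGF signalling genes (lin-3, let-23 and plc-3), 3 homeobox genes that specify the ALA neuron (ceh-10, ceh-14 and ceh-17) and 3 neuropeptide genes (nlp-8, nlp-14 and nlp-22). RNA was sequenced from whole larvae of Caenorhabditis elegans, in 8 libraries, after the larvae had hatched without food in M9 buffer and been held in L1 arrest for 48 hours. Wild-type N2 gave 4 libraries and strain HBR227, whose genotype is aptf-1(gk794), gave 4, each labelled A to D and called biological replicates. The mutant is represented by 1 strain with 1 allele, neither strain was treated, and no age beyond the time in arrest is given.

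LIN-3 is the worm's EGF-like ligand, LET-23 its receptor tyrosine kinase, and PLC-3 the phospholipase C gamma that acts after the receptor. ALA is a head interneuron that EGF signalling activates, and it brings on sleep after cellular stress by releasing several neuropeptides. It is distinct from RIS, the sleep neuron that needs the AP2 transcription factor APTF-1 and acts through the peptide gene flp-11. The comparison asks how transcripts of the genes followed here stand in larvae that carry the aptf-1 mutation. In whole larvae, fewer cells of a type and less RNA per cell cannot be told apart, and ALA is a single cell, so reads of these genes also come from other cells that express them.

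Libraries held 43.6 to 56.4 M counts (M, 1000000) in N2 and 48.4 to 65.0 M in HBR227. Levels are given as CPM, counts per 1000000 after TMM scaling of the libraries. The targeted gene aptf-1 had 161 to 234 counts in N2 and 33 to 69 in HBR227, and its dependent gene flp-11 stood at 143 to 163 CPM in N2 libraries and at 42.2 to 46.4 CPM in those of HBR227. HBR227 A stood apart, with a correlation across genes of 0.972 to 0.973 with the other HBR227 libraries, against 0.993 to 0.994 among N2 libraries. Fits of the members and counts of called genes in each list are therefore given with and without it. Markers of neurons, body wall and pharynx muscle, intestine and epidermis were all detected. In edgeR none of the 5 body wall muscle genes (myo-3, unc-54, unc-15, lev-11 and mup-2) or the 4 of the pharynx (myo-1, myo-2, myo-5 and tnc-2) was called, also at an unadjusted p under 0.05 or by limma voom or DESeq2, while without HBR227 A myo-1 was called higher (0.28 ± 0.04). In the intestine ges-1 rose and asp-1 fell, while elt-2, cpr-6 and ifb-2 did not pass. Without HBR227 A cpr-6 was also called lower and ifb-2 higher. The 5 intestine genes summed to 4274 to 5149 CPM in N2 and to 3710 to 4077 CPM in HBR227, with no overlap. Of the epidermal genes dpy-7 fell, while rol-6, dpy-5, elt-3 and lin-26 did not pass, and the counts were the same without HBR227 A. Summed body wall muscle markers stood at 7530 CPM in HBR227 A and at 9519 to 10648 in the other libraries. Pharynx markers summed to 4122 CPM in HBR227 A, 5663 to 5998 in N2 and 6276 to 6535 in the other HBR227 libraries. Epidermis markers summed to 165 CPM in HBR227 A, 126 to 129 in N2 and 116 to 122 in the other HBR227 libraries. Markers of other stages were low: the 6 yolk genes of the adult summed to 7.87 to 8.87 CPM in N2 and 9.90 to 13.01 in HBR227, with vit-6 called higher. The 6 genes of the early embryo summed to 16.7 to 20.5 and 10.5 to 16.3 CPM, with pes-10 and end-3 called lower and med-2 higher. Without HBR227 A, 4 of these 6 were called lower, end-1 and tbx-37 in addition, and the yolk gene vit-1 was called lower too. The part of these tissue and stage markers in the results below was not tested.

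Transcripts of the receptor gene, of 1 homeobox gene and of both abundant peptide genes were higher in HBR227, and no member passed the test for a fall. All 9 passed the filter on low counts, nlp-22 only through its N2 libraries, since 2 of its 4 HBR227 libraries held fewer than 10 counts. Of these, 4 rose: nlp-8, nlp-14, let-23 and ceh-14 (quasi-likelihood test of edgeR, with p-values adjusted by Benjamini-Hochberg over 17522 genes and called under 0.05). The same test called 21.5% of all genes, 11.2% as higher and 10.4% as lower. Rises made up 51.9% of the calls under TMM scaling but 27.4% with total counts as the scale, where the median of all genes shifted to -0.11 (log2). On that scale let-23, nlp-8 and nlp-14 still passed, at 0.28, 0.65 and 0.35. No member fell in edgeR or in limma voom, while nlp-22 was lower at an unadjusted p under 0.05 in edgeR and was called lower by DESeq2. The groups of 4 did not overlap at 4 members that were higher in HBR227 and at 1 that was lower, where 14.5% and 14.4% of all genes tested behaved so. The median log2 fold change of the members was 0.03, against 0.00 for all genes tested. Without HBR227 A the same 4 members rose and nlp-22 was also called, as lower, in a fit that called 44.3% of 17850 genes (21% higher and 23.3% lower).

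**Figure D1:**
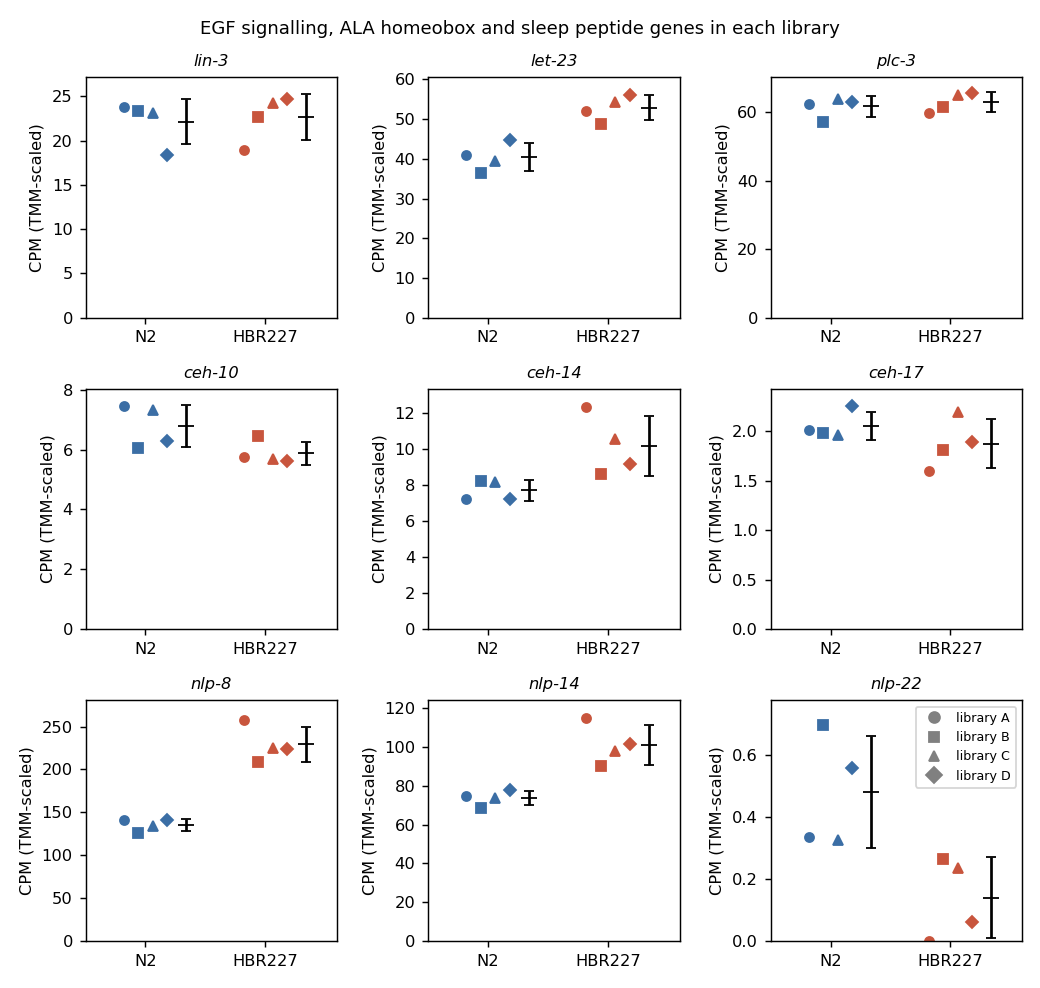
Level of each of the 9 genes in TMM-scaled CPM (vertical axes, from 0) in the 4 N2 (blue) and 4 HBR227 (red) libraries, with marker shapes for libraries A to D and black bars for the mean ± SD. For let-23, ceh-14, nlp-8 and nlp-14 all red points lie above all blue ones, and for nlp-22 all lie below.

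Per kilobase of exon the members covered a wide range of levels. The highest was nlp-8, at 161 ± 8.40 CPM per kb in N2 (SD, n = 4), which placed it above 96.6% of 15683 genes with a matched exon length. Next came nlp-14 at 71.9 ± 3.66 and plc-3 at 13.9 ± 0.682 CPM per kb. In N2, lin-3 at 9.88 ± 1.14 and let-23 at 9.001 ± 0.780 CPM per kb followed, and their libraries overlapped. The homeobox genes lay lower, with ceh-10 at 6.01 ± 0.619, ceh-14 at 4.05 ± 0.295 and ceh-17 at 2.24 ± 0.152 CPM per kb, and nlp-22 was lowest at 1.44 ± 0.542. The other neighbours in this order did not overlap in N2. In HBR227, let-23 had the higher mean of the pair with lin-3 (11.8 ± 0.701 against 10.1 ± 1.16 CPM per kb) and ceh-14 that of the pair with ceh-10 (5.35 ± 0.872 against 5.21 ± 0.347), but both pairs overlapped there. Exon lengths are the union over all annotated transcripts, of which lin-3 has 11, so the level per length of lin-3 can be understated.

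**Figure D2:**
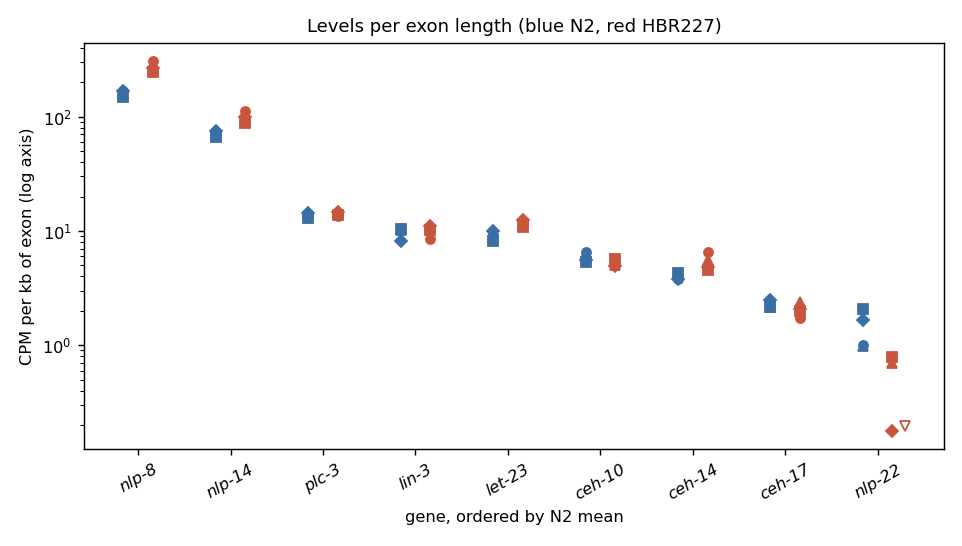
Level per kilobase of exon (log axis) of the 9 genes in each library, N2 in blue and HBR227 in red, ordered by the N2 mean and with the marker shapes of the plot of levels by library. The open triangle stands for HBR227 A, which had 0 counts of nlp-22, drawn at the level of 3 counts, and nlp-8 and nlp-14 lie far above the other genes in both strains.

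The ligand gene lin-3 lies on chromosome IV (11054308 to 11063768, plus strand, WBcel235) and is protein-coding, as are all the other members. In libraries A to D its level was 23.9, 23.3, 23.1 and 18.4 CPM for N2, and 19.0, 22.7, 24.3 and 24.7 CPM for HBR227. The groups overlapped, with 1 library of each strain lower than the rest. The log2 fold change was 0.03 ± 0.11 (SE; edgeR adjusted p = 0.862), with a 95% interval of -0.21 to 0.28, so that a change of up to 1.21-fold upward lies within the interval. Without HBR227 A it was 0.11 ± 0.08 and was not called either. Exons of ttr-16 on the other strand cover 9.32% of the lin-3 exon length. That neighbour is far more abundant, at 411 CPM per kb in N2, and fell by 0.36 ± 0.07 on the log2 scale (edgeR adjusted p = 0.00745). Whether strand was used in counting is not given in the sources used here, so a share of ttr-16 reads in lin-3 cannot be told apart from its own.

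The receptor gene let-23 rose. It lies on chromosome II (9197512 to 9207213, plus strand), and its levels in libraries A to D were 41.1, 36.4, 39.4 and 44.8 CPM for N2 and 52.0, 48.8, 54.2 and 56.1 CPM for HBR227. Every HBR227 library was above every N2 library. Its mean went from 40.4 ± 3.51 to 52.8 ± 3.15 CPM (SD, n = 4), a log2 fold change of 0.38 ± 0.08 (edgeR adjusted p = 0.00604) and 0.39 ± 0.06 without HBR227 A.

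The phospholipase gene plc-3, on the same chromosome (10222877 to 10229440, plus strand), varied least of the members between libraries of a strain. The N2 libraries A to D had 62.4, 57.2, 63.9 and 63.1 CPM, the HBR227 libraries 59.7, 61.5, 65.1 and 65.6. The groups overlapped over most of their range. The log2 fold change was 0.03 ± 0.06 (edgeR adjusted p = 0.745) with a 95% interval of -0.10 to 0.16, and the change at the upper end of that interval is 1.12-fold. Without HBR227 A it was 0.06 ± 0.05 and not called. The ratio of let-23 to plc-3 counts within a library, which no scaling can alter, was 0.617 to 0.711 in N2 and 0.793 to 0.871 in HBR227, with no overlap. For let-23 to lin-3 the ratio overlapped, at 1.56 to 2.44 and 2.15 to 2.74. These and the ratios below were chosen after the values were seen and are given with no test.

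**Figure D3:**
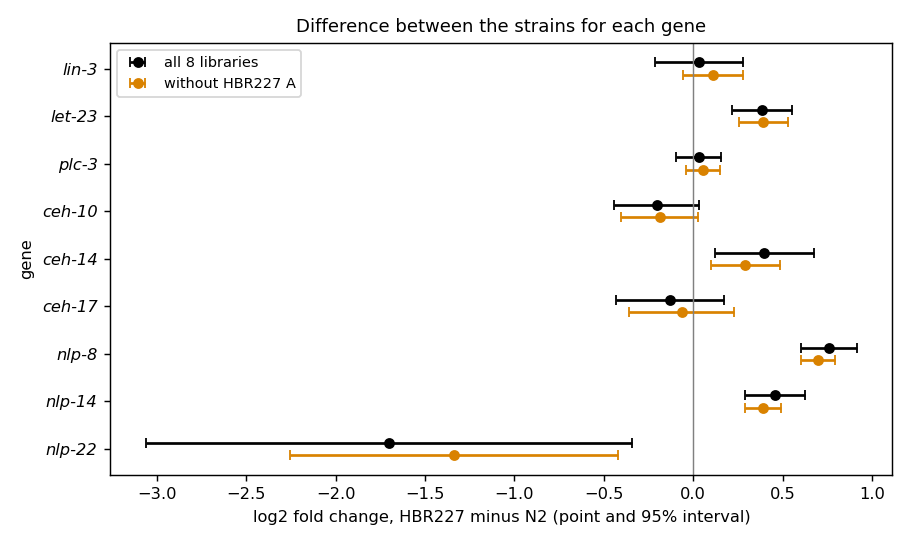
Log2 fold change of each gene (HBR227 minus N2, horizontal axis) with its 95% interval, from the fit to all 8 libraries (black) and without HBR227 A (orange). The intervals of let-23, ceh-14, nlp-8 and nlp-14 lie above 0 in both fits, those of lin-3, plc-3, ceh-10 and ceh-17 include 0, and nlp-22 has by far the widest interval.

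The 3 homeobox genes did not move together. CEH-14 is a LIM homeodomain factor that also acts in thermosensory neurons. Its gene (chromosome X, 7527769 to 7532732, minus strand) had 7.22, 8.24, 8.16 and 7.23 CPM in the N2 libraries A to D, and 12.4, 8.62, 10.5 and 9.19 CPM in those of HBR227. The groups did not overlap, but HBR227 B came close to the highest N2 libraries and HBR227 A was the highest of all. The log2 fold change was 0.40 ± 0.12 (edgeR adjusted p = 0.0454), and 0.29 ± 0.09 without HBR227 A (edgeR adjusted p = 0.0160). This call was the least firm of the 4: leaving out N2 A, B, C or D gave an adjusted p of 0.102, 0.0676, 0.0701 or 0.100, and leaving out HBR227 C or D one of 0.107 or 0.0586. It also missed the threshold in limma voom (adjusted p = 0.0571) and with total counts as the scale (adjusted p = 0.109).

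CEH-10, a paired-like homeodomain factor that also specifies the AIY interneuron, is encoded on chromosome III (5799047 to 5801115, plus strand). N2 libraries A to D held 7.44, 6.06, 7.30 and 6.30 CPM of its transcript, and HBR227 libraries 5.74, 6.45, 5.68 and 5.61 CPM. Only HBR227 B reached into the N2 range, and the log2 fold change of -0.20 ± 0.11 did not pass the test (edgeR adjusted p = 0.197, 95% interval -0.44 to 0.03), nor did the value of -0.19 ± 0.10 without HBR227 A. CEH-17 is a Phox2-like homeodomain factor of ALA and the SIA neurons, and its gene lies on chromosome I (4568765 to 4570027, minus strand). The level was 2.01, 1.98, 1.96 and 2.26 CPM across N2 A to D and 1.59, 1.81, 2.19 and 1.89 CPM across HBR227 A to D, from 73 to 121 counts per library. The groups overlapped, and the log2 fold change was -0.13 ± 0.14 (edgeR adjusted p = 0.536, 95% interval -0.43 to 0.17), or -0.06 ± 0.14 without HBR227 A, again not called. The ratio of ceh-14 to ceh-17 counts was 3.21 to 4.17 in N2 and 4.76 to 7.75 in HBR227, the highest value being that of HBR227 A.

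Among the peptide genes, nlp-8 had the largest rise of all members. It lies on chromosome I (7800455 to 7801822, minus strand) and encodes a peptide precursor of ALA. Its counts of 6324 to 7579 in N2 and 11284 to 13370 in HBR227 gave 141, 126, 134 and 141 CPM and 258, 209, 226 and 224 CPM in libraries A to D. The lowest HBR227 library stood well above the highest N2 library. The difference was 1.69-fold with a 95% interval of 1.52 to 1.89 (log2 0.76 ± 0.07, edgeR adjusted p = 1.5e-04), and 0.70 ± 0.05 on the log2 scale without HBR227 A.

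The gene nlp-14 (chromosome X, 8917423 to 8919423, minus strand), another peptide precursor gene that acts in ALA-dependent sleep, rose less. Across libraries A to D it had 74.5, 68.6, 74.0 and 77.6 CPM in wild type, and 114.8, 90.1, 97.8 and 102 CPM in the mutant. The groups did not overlap, and HBR227 A was again highest. The difference was 1.37-fold with a 95% interval of 1.22 to 1.54 (log2 0.46 ± 0.08, edgeR adjusted p = 0.00275), and 0.39 ± 0.05 on the log2 scale without HBR227 A. Within libraries, the ratio of nlp-8 to nlp-14 counts was 1.81 to 1.89 in N2 and 2.21 to 2.32 in HBR227, so nlp-8 was higher relative to nlp-14 in each mutant library, HBR227 A included.

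The third peptide gene, nlp-22, was near the limit of detection. NLP-22 is made by the RIA interneurons and promotes the sleep of moulting larvae. The gene (chromosome X, 2341359 to 2342089, minus strand) had 15, 42, 16 and 30 counts in N2 and 0, 17, 12 and 3 in HBR227. All HBR227 libraries were below all N2 libraries in CPM, and the 0 in HBR227 A allows a level of up to 0.0655 CPM from counting error. The mean level was 0.479 ± 0.181 CPM for the wild type and 0.140 ± 0.130 CPM for the mutant (SD, n = 4). The log2 fold change of -1.70 ± 0.61 did not pass the test (edgeR adjusted p = 0.0736), and its 95% interval ran from -3.06 to -0.34. Without HBR227 A it was -1.34 ± 0.43 (edgeR adjusted p = 0.0189), and limma voom on all 8 libraries gave -2.48 ± 0.81 (adjusted p = 0.0552). With no filter on low counts, which nlp-22 had passed only through the strain where it was higher, it was -1.69 ± 0.59 (edgeR adjusted p = 0.0934), so these values are given as a description and no fall is drawn from them. The RIA marker genes glr-3 and glr-6, glutamate receptor subunits, had means of 3.29 ± 0.529 and 17.99 ± 1.25 CPM (SD, n = 4) in wild type, against 3.65 ± 0.641 and 19.5 ± 1.51 CPM in the mutant, and neither was called by edgeR, limma voom or DESeq2 (0 at an unadjusted p under 0.05). Without HBR227 A edgeR called neither of these RIA genes.

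The lists of related genes, here and below, were chosen with earlier results of these data known. Their shares beside all genes are therefore a description with no test. Other genes of ALA were measured beside the members. Of 5 such genes, 2 rose, or 40% against 11.2% of all genes tested. None fell in edgeR (none at an unadjusted p under 0.05, and none by limma voom or DESeq2). The risers were ida-1, a dense-core vesicle protein gene of many neuroendocrine cells (0.34 ± 0.05, edgeR adjusted p = 0.00217), and the peptide gene flp-7 (0.37 ± 0.07, edgeR adjusted p = 0.00529). The ALA peptide gene flp-13 had a log2 fold change of 0.26 ± 0.10 (adjusted p = 0.109), flp-24 of 0.15 ± 0.05 (adjusted p = 0.0570) and the receptor kinase gene ver-3 of 0.04 ± 0.09 (adjusted p = 0.764). Without HBR227 A, 4 of the 5 were called higher (80%, against 21% of all genes), all but ver-3. Within libraries the ratio of nlp-8 to ida-1 counts was 0.133 to 0.141 in N2 and 0.173 to 0.212 in HBR227, with no overlap. The ratio of nlp-14 to ida-1 overlapped, at 0.0732 to 0.0764 and 0.0754 to 0.0941.

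**Figure D4:**
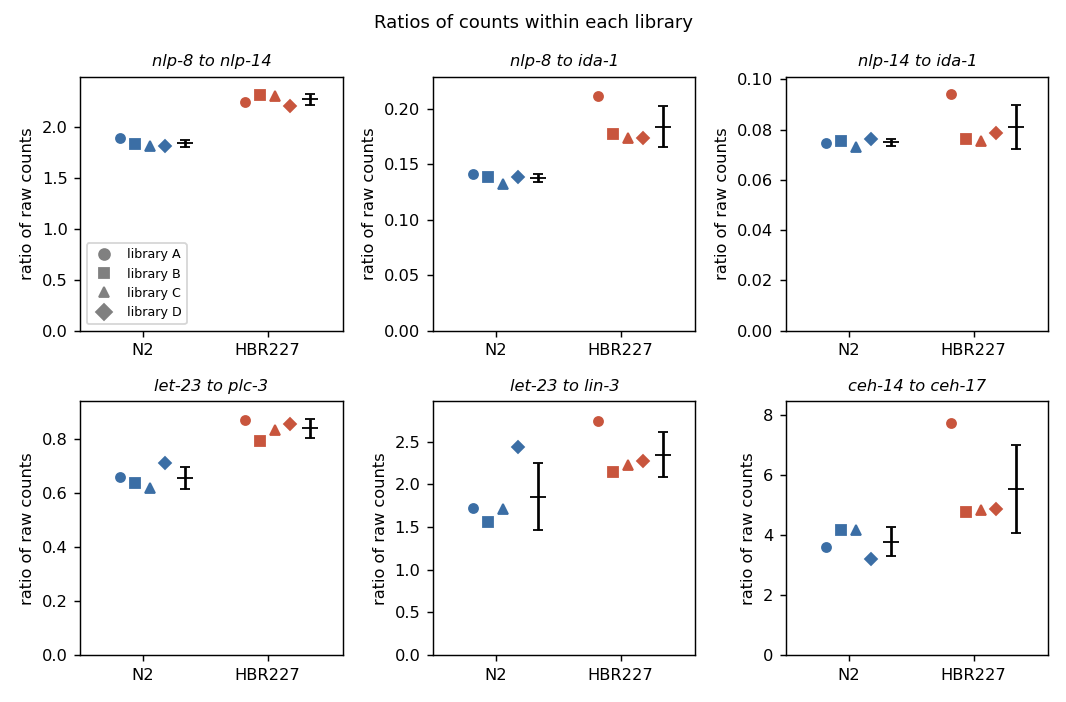
Ratios of raw counts of pairs of genes within each library (vertical axes, from 0), N2 in blue and HBR227 in red, with marker shapes for libraries A to D and black bars for the mean ± SD. The ratio of nlp-8 to nlp-14 separates the strains with little spread, while those of nlp-14 to ida-1 and let-23 to lin-3 overlap.

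Among markers of neurons in general, 3 of 12 genes rose (25%, against 11.2% of all genes tested) and 9 did not pass. The 12 summed to 3992 to 4450 CPM in N2 and 4809 to 5230 in HBR227, with HBR227 A at 4818, and none fell in edgeR (none at an unadjusted p under 0.05, and none by limma voom or DESeq2). With all 8 libraries the risers were genes of peptide processing, the proprotein convertase gene egl-3 (0.26 ± 0.06), the carboxypeptidase E gene egl-21 (0.27 ± 0.06) and sbt-1 (0.24 ± 0.05), a chaperone gene of the convertase. The median log2 fold change of the 12 was 0.08, and single genes reached down to -0.02. Without HBR227 A, 7 of the 12 rose (58.3%, against 21% of all genes) with a median of 0.13, the others being the synaptic genes rab-3, unc-64 (syntaxin) and ric-4 (SNAP-25) and the kinesin gene unc-104. Their part in the rises of nlp-8 and nlp-14 was not tested.

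In the EGF pathway beyond the members, rises were spread over several steps. The list held 42 genes, 40 of them in the table and tested, among them the FGF gene let-756. Of the 40, 11 rose (27.5%, against 11.2% of all genes tested), 29 did not pass and no gene fell, and the median was 0.09. At an unadjusted p under 0.05 edgeR had 1 lower gene, and limma voom and DESeq2 called none lower. Without HBR227 A 17 rose and 3 fell, against 21% and 23.3% of all genes.

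Among genes for release of the ligand, the ADAM protease gene sup-17 rose (0.30 ± 0.09), while the rhomboid gene rom-1 had -0.23 ± 0.10 and the ADAM protease gene adm-4 -0.14 ± 0.15. Without HBR227 A both were called lower, at -0.24 ± 0.09 and -0.31 ± 0.08, beside the rise of sup-17. Of 6 genes that place or sort the receptor at the membrane, lin-2, a CASK scaffold gene, rose (0.24 ± 0.05). In the cascade from the adaptor to ERK, 3 of 12 rose, namely the ERK gene mpk-1 (105 ± 4.44 to 137 ± 4.03 CPM, SD, n = 4; 0.38 ± 0.05), the scaffold gene cnk-1 (0.44 ± 0.06) and the Raf gene lin-45 (0.28 ± 0.07). Of 10 negative regulators tested, 4 rose: the Ras GTPase-activating protein genes gap-1 (0.37 ± 0.08) and gap-3 (0.31 ± 0.07) and the trafficking genes rab-7 (0.27 ± 0.05) and agef-1 (0.16 ± 0.05). Among 9 nuclear effectors, the ETS factor gene lin-1 (0.35 ± 0.06) and eor-2 (0.25 ± 0.07) rose. Without HBR227 A the counts called higher were 3 of 6 for receptor placement, 4 of 12 for the cascade, 7 of 10 for negative regulators and 2 of 9 for nuclear effectors. The adaptor gene sem-5 of the cascade was called lower in that fit (-0.18 ± 0.06). With all 8 libraries the shares of these steps, in the same order, were 16.7%, 25%, 40% and 22.2%, against 11.2% of all genes tested. Without HBR227 A they were 50%, 33.3%, 70% and 22.2%, against 21% of all genes. The share of the nuclear effectors was thus near that of all genes in this fit. The Ras gene let-60 itself had 0.04 ± 0.05 (edgeR adjusted p = 0.540, named after its value was seen).

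Other genes of phospholipase C, IP3 and diacylglycerol signalling, the branch in which plc-3 acts, rose in part. Of 14, 5 rose and none fell in edgeR (none at an unadjusted p under 0.05, and none by limma voom or DESeq2), with a median of 0.13. The share was 35.7%, against 11.2% of all genes tested. Without HBR227 A 7 of 14 rose (50%, against 21% of all genes) and none fell. The phospholipase C beta gene egl-8 (0.30 ± 0.05), the protein kinase C gene pkc-1 (0.25 ± 0.06), the synaptic diacylglycerol target gene unc-13 (0.24 ± 0.06) and the IP3 receptor gene itr-1 (0.28 ± 0.08) were the clearest, followed by plc-1 (0.21 ± 0.06).

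Receptors and regulators of sleep also rose in part. Of 12, 6 rose, none fell in edgeR (none at an unadjusted p under 0.05, and none by limma voom or DESeq2), and the median was 0.21. The share that rose was 50%, against 11.2% of all genes tested. Without HBR227 A, 8 of the 12 rose (66.7%, against 21% of all genes), egl-4 and crh-1 in addition, and none fell. The neuropeptide receptor gene npr-22 (0.57 ± 0.09), the histone deacetylase gene hda-4 (0.28 ± 0.05), the peptide gene pdf-1 (0.35 ± 0.07) and the FLP-13 receptor gene dmsr-1 (0.25 ± 0.06) led these. The kinase gene kin-29 (0.17 ± 0.05) and the PDF receptor gene pdfr-1 (0.27 ± 0.08) rose too. Of 12 other homeobox and cofactor genes, ldb-1, whose product binds LIM homeodomain factors such as CEH-14, rose (0.15 ± 0.04) with all 8 libraries, and none fell in edgeR (none at an unadjusted p under 0.05, and none by limma voom or DESeq2). That share of 8.33% was below the 11.2% of all genes tested. Without HBR227 A 3 rose (25%, near the 21% of all genes), with lim-7 and ceh-20 added, and ceh-36 was called lower (-0.44 ± 0.13). For AIY, another neuron that uses ceh-10, ceh-23 fell (-0.61 ± 0.15, edgeR adjusted p = 0.0201), while ttx-3 (0.15 ± 0.11), ser-2 (0.20 ± 0.11) and mod-1 (0.15 ± 0.08) did not pass. Without HBR227 A ser-2 and mod-1 were called higher (0.28 ± 0.09 and 0.18 ± 0.07), and ceh-23 was still called lower.

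**Figure D5:**
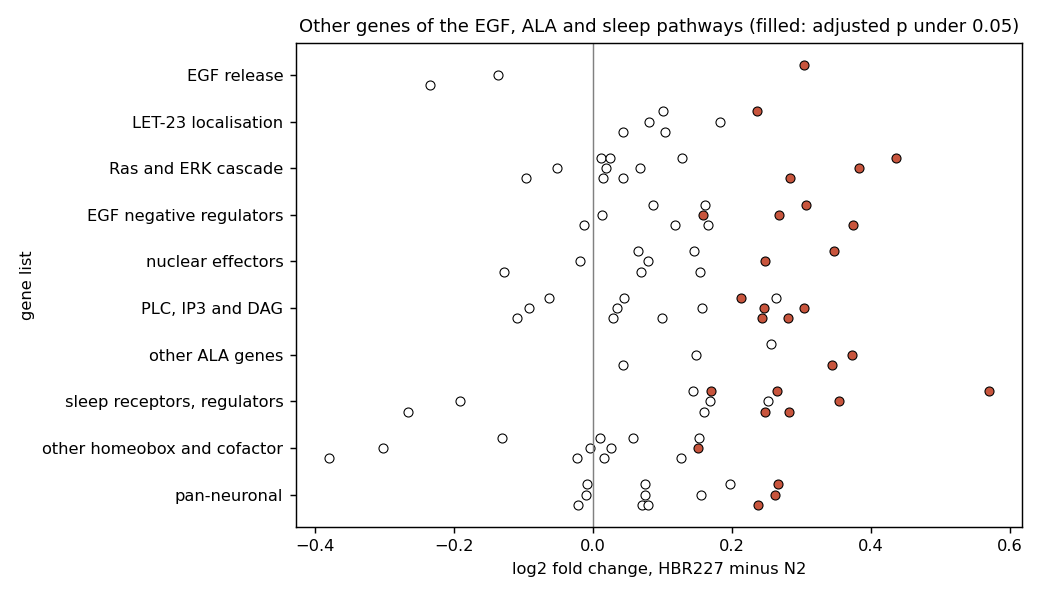
Log2 fold change (HBR227 minus N2, horizontal axis) of each tested gene in 10 lists of related genes (vertical axis), where each point is a gene and red filling marks an adjusted p under 0.05 with a rise. The fit is that to all 8 libraries, in which no gene of these lists was called lower, and the called genes lie between 0.15 and 0.57.

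The genes whose pattern over the 8 libraries was closest to each called member were found among 12912 others whose average log2 CPM reached 1, by the root-mean-square difference of log2 CPM after centring each gene. For nlp-8 they were K09E4.4, sta-2 and aak-1, at 0.03, 0.04 and 0.05. For nlp-14 they were lpd-7, ZC443.4 and smf-3, each at 0.03. The closest to let-23 were F07B7.12, rpm-1 and C28H8.3, at 0.02, 0.04 and 0.04. For ceh-14 the closest were smi-1, C17G10.13 and W02F12.4, at 0.04, 0.07 and 0.07, so its pattern had less close matches than those of the other 3. Of the called members ceh-14 also had the lowest level and the widest relative spread in HBR227. The part of level and spread in these distances was not tested.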

How the data were processed

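The authors deposited a table of raw counts per gene for all 8 libraries, not scaled. Bowtie 0.12.2 and the builds WBcel235 and mm8 are named without a role in the submitters' processing notes; which program and annotation gave the counts, and whether by strand, is not given in the sources used here. Of 46433 rows, 11 whose names had become dates (0.0333% of counts) were left out. Positions, exon lengths and overlaps come from Ensembl release 115 gene models of WBcel235, 1-based.

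The test was edgeR 4.0.16 in R 4.3.3: TMM scaling, filterByExpr with a minimum count of 10, robust quasi-likelihood F test of HBR227 against N2 on all 8 libraries without covariates, and Benjamini-Hochberg adjustment over 17522 genes. CPM is counts per 1000000 after TMM scaling. Log2 fold changes are HBR227 over N2, and each SE is the fold change divided by the root of F. Alternatives were other scalings, filters and thresholds, limma 3.58.1 voom, DESeq2 1.42.0, the replicate letter as a block and leaving out each library. The test was run on simulated data first. Labels do not say that replicates were separate cultures, and p-values then reflect only how these samples spread, which may be technical. Intervals and floors for single counts cover counting error only.

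The members and the gene lists were chosen with earlier results of these data known. Named genes are all members, aptf-1, flp-11, up to 4 called genes with the smallest p from each list, all genes of lists of 5 or fewer, and the 3 closest patterns of each called member; plc-1, kin-29, pdfr-1, let-60, ttr-16 and the genes named from the fit without HBR227 A were named after their values were seen. Promoters and proteins were not used here. Figures were drawn with matplotlib 3.10.9 in Python 3.11.15.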

Additional observations from a re-analysis of the deposited data

Results flagged for a closer look

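In 40 groups of 4 values (genes, ratios and depths by strain), 8 had a library far from the other 3 relative to the group's range, where chance gives about 1 group in 20; groups that share a gene or a library are not independent. In N2, library D was far below the others for lin-3 (18.4 CPM) and far above them for ceh-17 (2.26 CPM). In HBR227, library B was far above the others for ceh-10 (6.45 CPM), and library A was far below them for aptf-1 (0.720 CPM). HBR227 A also stood far above the other mutant libraries in the ratios of ceh-14 to ceh-17 (7.75), nlp-8 to ida-1 (0.212), nlp-14 to ida-1 (0.0941) and nlp-8 to flp-13 (6.49), and it is the library that stands apart across all genes. The ratio of nlp-8 to nlp-14 showed no such gap, with HBR227 A at 2.25 and the other mutant libraries at 2.21 to 2.32.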

How the results depend on the processing

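The rises of let-23, nlp-8 and nlp-14 kept their direction and their call under all 17 alternatives, with log2 fold changes of 0.28 to 0.45, 0.65 to 0.80 and 0.35 to 0.51. ceh-14 stayed higher in all 17 but lost its call in 10. Among these it was 0.29 with total counts alone, 0.37 with limma voom and 0.40 at an adjusted p under 0.01. Over single libraries left out it ran from 0.29 (without HBR227 A) to 0.47 (without HBR227 B), and it kept its call at both ends. The left-out fits that lost the call ran from 0.37 to 0.45. nlp-22 was called lower by DESeq2 (-1.73), making 1 member lower there, as it was without HBR227 A, against 0 in the fit to all 8 libraries and in the other fits with a library left out; it was -2.48 with limma voom, not called, ran from -2.24 to -1.34 over single libraries left out and had no value under a CPM of at least 1. With total counts alone, lin-3 was -0.0717 and plc-3 was -0.0738, both turned from positive, and lin-3 ran from -0.0382 (without N2 D) to 0.11 (without HBR227 A) over single libraries left out. Neither was called in any setting, and the cause was not tested. Over all genes, 3774 calls (1960 higher, 1814 lower, 51.9% higher) became 1174 higher and 3111 lower with total counts alone (27.4% higher, median log2 fold change -0.11), and 1722 (952 higher, 770 lower) at an adjusted p under 0.01. Leaving out single libraries gave 2423 to 7906 calls, 1317 to 3748 higher and 1034 to 4158 lower, the extremes being without HBR227 C or N2 B and without HBR227 A; the total was 2430 without N2 B and 2510 without HBR227 D. Leaving out HBR227 A was an alternative for lists added after seeing the data. In either direction, 20 in place of 11 of 40 EGF pathway genes and 4 in place of 2 of 5 other ALA genes were called. So were 7 in place of 3 of 12 neuronal markers and 4 in place of 1 of 12 other homeobox or cofactor genes. That fit called 44.3% of all genes in either direction, against 21.5% with all 8 libraries. Calls thus grew over all genes as well, not in these lists alone. DESeq2 called 4492 genes. With the replicate letter as a block (replicate block), 3065 genes were called and ceh-14, at 0.39, had an edgeR adjusted p of 0.0926. The labels do not say whether libraries of the same letter are pairs. Same-lettered deviations correlated at -0.01, 0.14, 0.03 and -0.01, and those of unlike letters at -0.11 to 0.05. The B libraries, at 0.14, were the highest of all pairs, so these values cannot decide it. Depth limits nlp-22 most, with at most 42 counts in a library.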
